A study of Mus musculus with 12 samples.

Results

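Lipolysis is the hydrolysis of stored triglyceride to fatty acids and glycerol. Inhibitors of it were given to mouse white adipocytes that received no hormonal stimulus. RNA sequencing was used to ask which transcripts changed when the fatty acid flux that runs without stimulation was targeted. The comparison took the 3 libraries of cells treated with lipase inhibitors (Lip) against the 3 libraries of cells treated with vehicle (DMSO), chosen by their column names. These are 6 of the 12 libraries of the series. Mature adipocytes were floated from collagenase-digested epididymal fat of lean male C57/BL6J mice (eWAs), seeded at 50000 cells per well in a hydrogel and kept for 2 days before treatment. The inhibitors named in the methods are Atglistatin, against adipose triglyceride lipase (ATGL, encoded by Pnpla2), and CAY10499. The methods list CAY10499 against both hormone-sensitive lipase (HSL, encoded by Lipe) and monoglyceride lipase (encoded by Mgll), while the figure legends name HSL alone. No library of this comparison received isoproterenol (ISO), a β-adrenergic agonist. The other 6 libraries had ISO for 3 h, 3 of them after the inhibitors (Lip+ISO) and 3 without (ISO), and they enter here through the shared fit, to which they add an estimate of the spread, and for the effect of the inhibitors under ISO. The titles and the study's text name ISO as the stimulus of these white adipocytes, but a figure legend of the study names SR-3420, an activator of lipolysis, and the titles are followed here.

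ATGL removes the first fatty acid of a triglyceride, HSL acts mainly on the resulting diacylglycerol, and monoglyceride lipase (Mgll) releases the last one. The fatty acids leave the cell, are burned in mitochondria, are esterified again, or act as ligands of the peroxisome proliferator-activated receptors (PPARs), nuclear receptors that drive genes of fatty acid use. White adipocytes carry out some lipolysis at all times, and β-adrenergic receptors raise it.

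The 6 libraries held 22632220 to 34903696 counts, and the table listed 20295 genes. In each of the Lip libraries (15634, 16244 and 16243 genes) more genes had a count than in any DMSO library (15141, 15204 and 15297). A count of 0 allows up to 3 counts, or 0.083 to 0.126 counts per 1000000 counts (CPM) depending on the library, for counting error only. Nothing in the labels ties a library to one animal, while the methods speak of independent experiments, so the p-values measure the spread between these libraries, part of which may be technical. Same-numbered DMSO and Lip libraries deviated together from their group means (correlation 0.34, 0.37 and 0.2 across tested genes for replicates 1, 2 and 3), so a model with this number as a block was fitted beside the one without. Marker genes of adipocytes were abundant in every library, at a summed 47280 to 65250 CPM for 15 genes.

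Lip replicate 3 stood apart. There, 61 genes with at least 1 CPM were at least 4 times the highest of the other 5 libraries, against 0 to 2 such genes in each other library, and 19 of the 61 were among 29 listed markers of epithelial cells. The 29 markers summed to 294 CPM in Lip replicate 3 and to 15.2 to 40 CPM in the other 5 libraries, and 28 of them were highest in Lip replicate 3. Cldn4, a tight junction protein, had 40.9 CPM there and 1.3 to 3.29 CPM in the other 5 libraries. Krt5, a keratin of basal epithelial cells, had 322 counts there and 0 in each of the other 5. Cdh1, the adhesion protein of epithelial cells, had 18.8 CPM there and at most 0.451 CPM in the other 5 libraries. Outside this comparison, the 29 epithelial markers summed to 41.2 to 87.8 CPM in the ISO libraries and to 32.8 to 48.8 CPM in the Lip+ISO libraries. Of 25 listed markers of epididymis, the organ beside this fat, 10 had no count in any of the 6 libraries, and the list summed to 3.07 CPM in Lip replicate 3 and to 0.284 to 0.996 CPM in the other 5 libraries. Of the 3.07 CPM, Wfdc2 gave 1.47 and Svs4 0.415, and 8 members were highest in Lip replicate 3. Others went the other way: Crisp1, Adam7, Lcn10 and Ovch2 had 0 counts in Lip replicate 3 and 5, 4, 1 and 2 in Lip replicate 1. The sum thus does not identify epididymal cells. Krt8, Krt18 and Krt19, keratins of simple epithelia and mesothelium, were also higher in DMSO replicate 2 than in the other DMSO libraries (9.53, 6.08 and 5.25 CPM), so not all of this list was at its floor elsewhere.

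**Figure D1:**
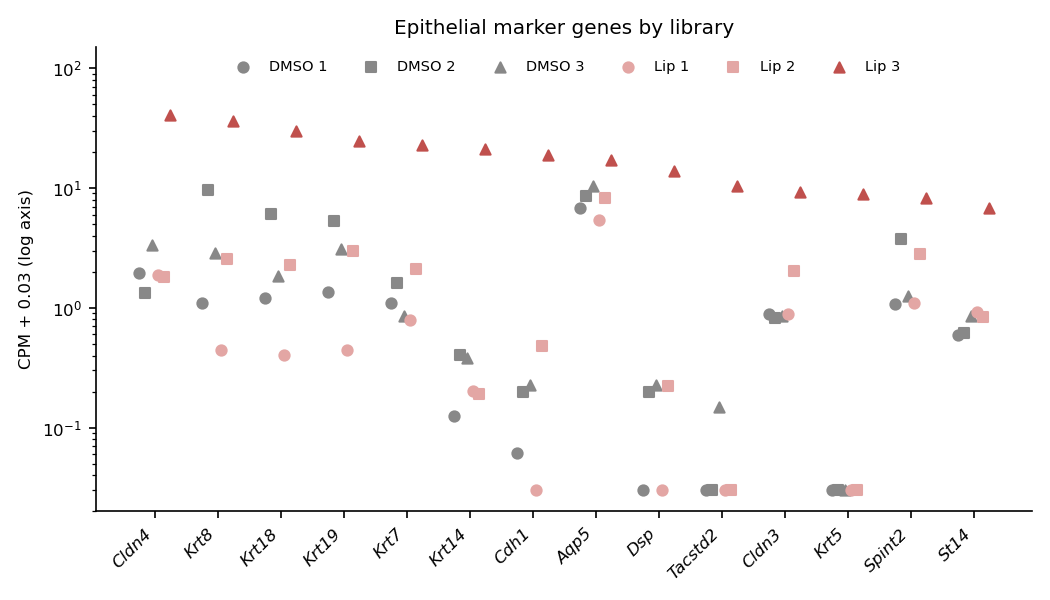
CPM of the 14 epithelial markers with the highest level in Lip replicate 3, plotted with 0.03 added on a log axis, 1 point per library. Lip replicate 3 lies above the other 5 libraries for every gene drawn, with Cldn4 at 40.9 CPM against at most 3.29 CPM.

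Few transcripts passed the test with the lipase inhibitors, and 6 of the 7 that did fell. Pdk4, Acot4 and Rasd1 fell by more than a factor of 2, and Insig1, Mtus1 and Spry4 fell by less. Atoh8 was the one gene that rose. A gene was called when its Benjamini-Hochberg adjusted p in the edgeR quasi-likelihood test was 0.05 or less and its log2 fold change was 1 or more in size. Of 13543 tested genes, 3 were called lower and 0 higher (0.0222% of genes). By adjusted p alone, hereafter the sense of passing, 6 genes were lower and 1 higher (0.0443% and 0.00738%, together 0.0517% of genes). An unadjusted p under 0.05 was reached by 267 lower and 315 higher genes (1.97% and 2.33%, together 4.3% of genes), or by 201 and 409 when libraries were scaled by their totals alone. Counting genes whose 3 Lip libraries all lay below or all above the 3 DMSO libraries gave 706 and 703 genes (5.21% and 5.19%).

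The block, which takes out what same-numbered libraries share, gave 27 genes that passed, 21 lower and 6 higher (0.155% and 0.0443% of genes), and these included all 7 genes above. Of the 27, Pdk4, Acot4, Rasd1, Adrb3, Pck1 and Ednrb were also past the minimum fold change (0.0443% of genes). Without Lip replicate 3 and without the block, 0 genes passed in the edgeR test at any size (484 had an unadjusted p under 0.05, 1.78% of genes higher and 1.74% lower, and 57 genes passed in DESeq2 with all libraries). Without Lip replicate 3 and with the block, 10 genes passed, 9 lower and 1 higher (0.0653% and 0.00726% of genes), all of them among the 27 and including all 7, and Pdk4 was the 1 gene called (0.00726%). The folds of the 27 genes kept their sign in these fits, as the plot of 4 fits shows, but the count did not keep its size: fitted with the block on the 6 libraries alone, 270 genes were lower and 189 higher, and leaving out any of the 6 libraries in turn without the block left 0 to 2 genes.

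**Figure D2:**
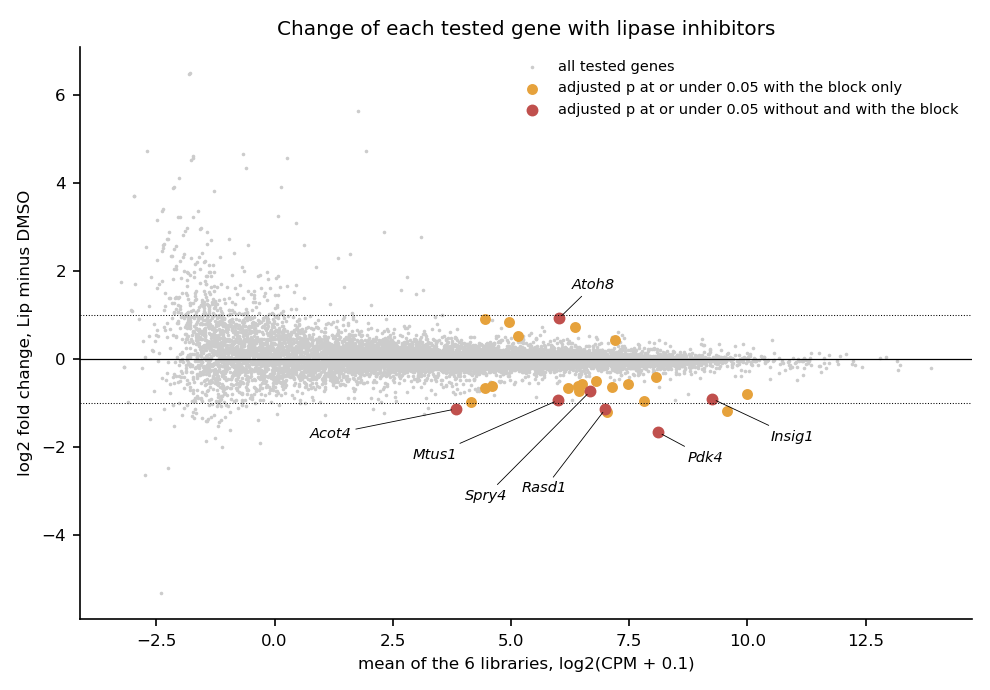
Log2 fold change of Lip over DMSO against the mean of the 6 libraries, log2(CPM + 0.1), for 13543 tested genes; 1 point is 1 gene and dotted lines mark a log2 fold change of 1 in size. The 7 genes that passed without and with the block are labelled, and 6 of them lie below 0.

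Pdk4 encodes a kinase that inactivates pyruvate dehydrogenase and so spares glucose when fatty acids are burned. Its level was 352, 383 and 530.4 CPM in DMSO replicates 1, 2 and 3 and 126, 113 and 162 CPM in the Lip libraries. All Lip libraries were under all DMSO libraries by a wide margin. The log2 fold change was -1.66 ± 0.21 (SE, edgeR adjusted p = 0.0142, and 3.8e-05 with the block), and same-numbered pairs differed by -1.48, -1.76 and -1.71. Without Lip replicate 3 it was -1.83 (adjusted p = 0.0654, and 0.00104 with the block).

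Acot4 encodes a peroxisomal thioesterase of acyl-CoA and lies among the genes that PPARα is known to induce. It had 19.9, 17.6 and 20.6 CPM in the DMSO libraries. In the Lip libraries it had 9.21, 9.46 and 7.94 CPM. The groups did not overlap, and the log2 fold change was -1.13 ± 0.14 (SE, edgeR adjusted p = 0.0142, and 0.00373 with the block). Acot4 lies in a cluster of near copies: 15.2% of the 36-base windows of its transcript are shared with Acot1, Acot2, Acot3, Acot5 or Acot6, so its counts are uncertain to that extent. Its neighbours were Acot2 at 76.5 and 63.7 CPM (means of DMSO and Lip, log2 fold change -0.26, adjusted p = 0.787) and Acot3 at 3.85 and 2.61 CPM (log2 fold change -0.57, adjusted p = 1).

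Pdk4 (NM_013743, mm9 chromosome 6, 5433351 to 5446278, minus strand) and Acot4 (NM_134247, mm9 chromosome 12, 85379329 to 85385673, plus strand) are the 2 called genes with a promoter in the reference table, from 250 bases before to 50 bases after the gene start. Rasd1 (NM_009026, mm9 chromosome 11, 59776685 to 59778444, minus strand) had none. The sequences are RefSeq's in the later build GRCm38.p6, Acot4 at chr12:84038129-84038428 (plus strand) and Pdk4 at chr6:5496229-5496528 (minus strand), shown because both genes were called. Capitals mark matches to the motifs searched.
Acot4: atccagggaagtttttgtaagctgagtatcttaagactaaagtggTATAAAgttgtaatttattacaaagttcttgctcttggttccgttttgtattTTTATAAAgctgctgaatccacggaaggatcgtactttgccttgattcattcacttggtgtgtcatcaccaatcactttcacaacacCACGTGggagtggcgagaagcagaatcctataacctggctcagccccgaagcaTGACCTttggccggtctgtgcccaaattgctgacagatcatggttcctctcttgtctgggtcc
Pdk4: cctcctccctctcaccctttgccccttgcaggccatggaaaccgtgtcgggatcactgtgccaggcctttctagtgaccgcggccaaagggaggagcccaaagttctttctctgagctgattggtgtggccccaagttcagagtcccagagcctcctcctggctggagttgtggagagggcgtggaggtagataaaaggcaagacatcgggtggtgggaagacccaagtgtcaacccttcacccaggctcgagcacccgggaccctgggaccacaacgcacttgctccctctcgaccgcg
The search covered both strands for the PPAR response element (the repeat AGGTCA in direct orientation, 1 base apart) and its single repeat AGGTCA, the cAMP response element TGACGTCA and its core TGACG, which lies within it, the E-box CACGTG, the full glucocorticoid response element and its single arm TGTTCT, and TATAAA. The Acot4 window held the single repeat AGGTCA on the minus strand at bases -13 to -8 (16.3% of 32851 promoters hold it), the E-box at -66 to -61 (7.15% of promoters) and TATAAA at 3 places, 2 of which overlap (13.6% of promoters). None of the motifs searched was found in the Pdk4 window, and the full direct repeat was in neither (0.0396% of promoters). Only exact letters were matched, so imperfect forms of these motifs were not looked for in either window. A match is a description of the letters only.

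Rasd1 encodes a Ras-related GTP-binding protein that glucocorticoids induce. It had 200, 151 and 174 CPM in the DMSO libraries and 100.5, 76.1 and 64.2 CPM in the Lip libraries, with no overlap. The log2 fold change was -1.13 ± 0.17 (SE, edgeR adjusted p = 0.0331, and 0.00769 with the block). Lip replicate 3 was the lowest, and without it the fold change was -0.99 (adjusted p = 0.172, and 0.0394 with the block). Rasd1 overlaps Med9 on the other strand, and nothing states that reads were counted by strand, so reads of the pair cannot be told apart.

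Insig1 (NM_153526, mm9 chromosome 5, 28397952 to 28405202, plus strand) encodes a membrane protein of the endoplasmic reticulum that holds back the sterol-regulated transcription factors (SREBPs). It had 713, 767 and 911 CPM in the DMSO libraries and 398, 398 and 487 CPM in the Lip libraries. The pairs differed by -0.84, -0.94 and -0.9, with no overlap of the groups, and the log2 fold change was -0.9 ± 0.13 (SE, edgeR adjusted p = 0.0331, and 0.00334 with the block). Spry4, a feedback inhibitor of growth factor signaling to ERK, had 134, 128 and 120.1 CPM in the DMSO libraries and 74.4, 85.6 and 70.1 CPM in the Lip libraries (log2 fold change -0.73 ± 0.09, edgeR adjusted p = 0.0142, and 0.00373 with the block). Mtus1, a microtubule-associated protein, had 85.2, 84.8 and 80.9 CPM in DMSO and 48, 48.9 and 35.1 CPM in Lip (log2 fold change -0.93 ± 0.13, edgeR adjusted p = 0.0266). For both genes the groups stood clear of each other.

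Atoh8 (NM_153778, mm9 chromosome 6, 72156172 to 72185571, minus strand) encodes a transcription factor of the basic helix-loop-helix family. It had 51.6, 40.9 and 41.2 CPM in the DMSO libraries and 89.5, 80.2 and 84.6 CPM in the Lip libraries, so it was higher in each pair (log2 differences 0.79, 0.97 and 1.04). The log2 fold change was 0.93 ± 0.12 (SE, edgeR adjusted p = 0.0202, 0.00373 with the block, and 0.0394 with the block and without Lip replicate 3). Lip replicate 3 lay between the other Lip libraries.

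**Figure D3:**
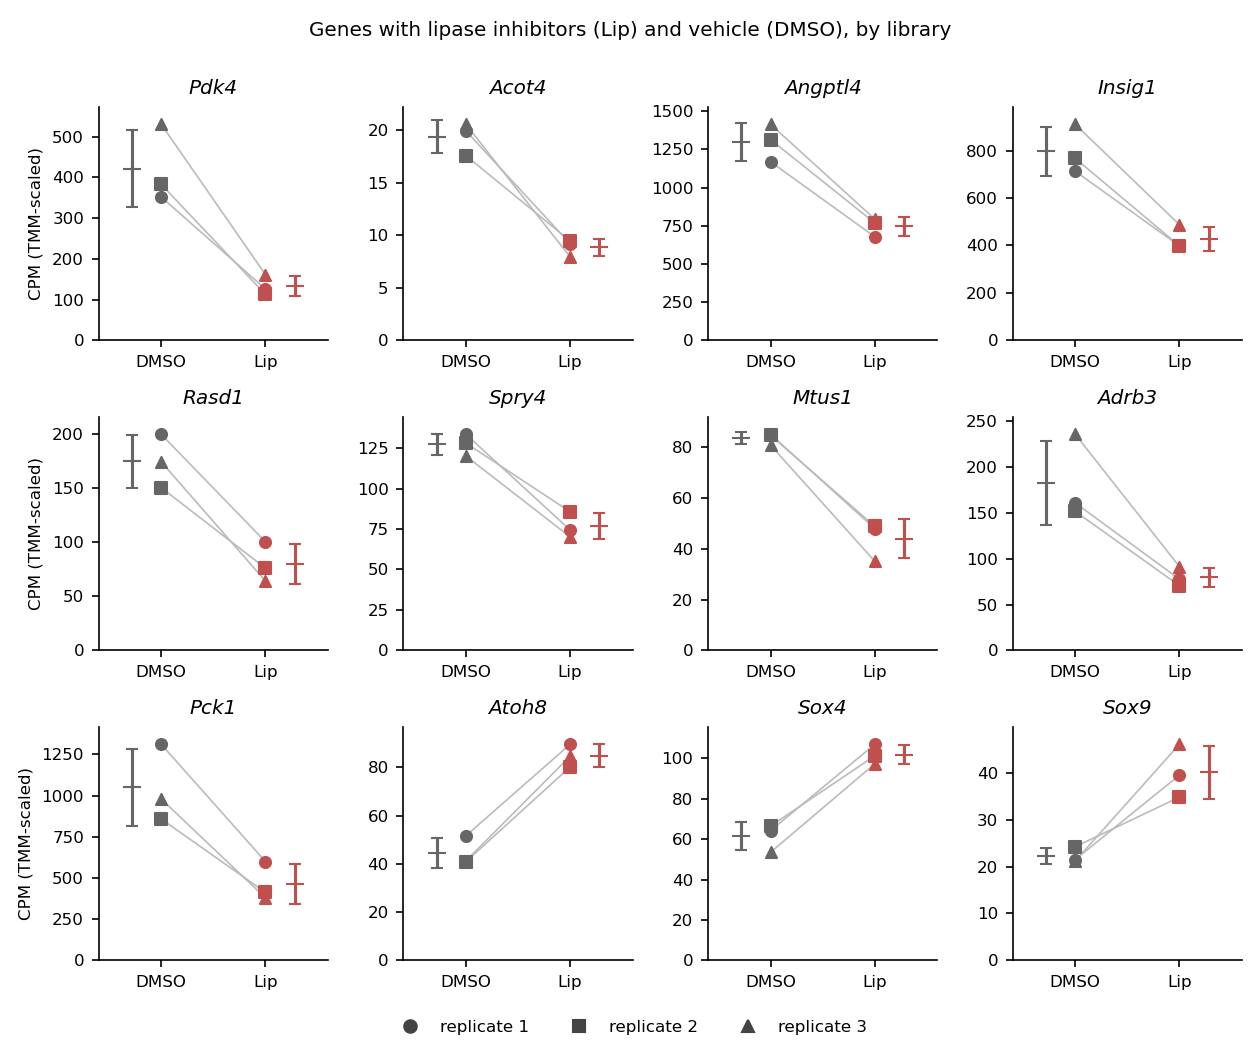
CPM (TMM-scaled) of 12 genes in the 3 DMSO and 3 Lip libraries, with each same-numbered pair joined by a line and mean ± SD (n = 3) beside the points; axes start at 0. Pdk4 to Pck1 lie lower in all Lip libraries than in all DMSO libraries, and Atoh8, Sox4 and Sox9 lie higher in all of them.

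A further 20 genes passed in edgeR with the block but not in the same fit without it. They are described because they did so, after their values were seen. In DESeq2 without the block, all of them but Ednrb, Il17ra, Bcar3 and Rgcc passed. Among those that did were Angptl4, Adrb3 and Pck1 (Wald test, adjusted p = 3.7e-06, 6.8e-05 and 0.00144). Angptl4, a secreted inhibitor of lipoprotein lipase and a PPAR target, had 1169, 1314 and 1414 CPM in DMSO and 678, 769 and 794 CPM in Lip. The groups did not overlap, and the pair differences of -0.79, -0.77 and -0.83 were nearly equal. The log2 fold change was -0.8 ± 0.13 (edgeR adjusted p = 0.0654, and 0.00334 with the block). Adrb3, the main β-adrenergic receptor of mouse adipocytes, had 161, 152 and 236 CPM in DMSO and 77.6, 70.6 and 91.3 CPM in Lip (log2 fold change -1.19 ± 0.21, edgeR adjusted p = 0.101, and 0.00965 with the block). Pck1, the enzyme of glyceroneogenesis, which makes the glycerol backbone for esterifying fatty acids again, had 1311, 858 and 979 CPM in DMSO and 600, 412 and 379 CPM in Lip (log2 fold change -1.18 ± 0.26, edgeR adjusted p = 0.251, and 0.0251 with the block). Neither of these 2 genes passed without Lip replicate 3 (0.0945 and 0.187 with the block), while Angptl4 did (0.0387).

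Among the rest were regulators of transcription and of lipid synthesis. Nrip1, a corepressor of nuclear receptors, had 105, 109 and 113 CPM in DMSO and 68.6, 63.3 and 64.6 CPM in Lip (log2 fold change -0.73 ± 0.14, edgeR adjusted p = 0.105, and 0.0198 with the block). Srebf1, which encodes SREBP1, had 315, 287 and 318 CPM in DMSO and 242, 217 and 238 CPM in Lip (log2 fold change -0.4 ± 0.09, edgeR adjusted p = 0.251, and 0.0251 with the block). Srebf1 overlaps Rai1 on the other strand, as Slc25a25 does Naif1 and Ddit3 does Mars. Pim3, a serine/threonine kinase, had 307, 281 and 304 CPM in DMSO and 156, 151 and 153 CPM in Lip (log2 fold change -0.95 ± 0.16, edgeR adjusted p = 0.0671, and 0.0251 with the block). The others that fell with the block were Rgcc, Fam53b, Bcar3, Slc25a25, Plxna2, Ccrn4l (nocturnin, an enzyme with rhythmic expression), Armcx4 and Tmem216, with log2 fold changes from -0.66 for Slc25a25 and Armcx4 to -0.5 for Plxna2. Of all these, Rgcc and Fam53b also passed with the block and without Lip replicate 3, where the adjusted p was 0.138 for Nrip1 and 0.175 for Srebf1 and for Pim3.

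Ednrb, an endothelin receptor, had 16.8, 33.6 and 20.2 CPM in DMSO and 7.28, 19.4 and 9.55 CPM in Lip, so the groups overlapped and the fall appeared only within pairs (-1.2, -0.79 and -1.08, adjusted p = 0.0251 with the block, 0.175 with the block and without Lip replicate 3, and 1 without the block). The 14 listed endothelial markers were likewise highest in replicate 2 of both groups, with sums of 147, 279 and 165 CPM in DMSO and 77.6, 246 and 119 CPM in Lip, and 13 of the 14 were lower on average in Lip. The groups overlapped for that sum (exact permutation test, two-sided, p = 0.5, smallest possible 0.10), while each of the 3 pairs was lower in Lip (exact paired permutation test, p = 0.25, the smallest 3 pairs can give), and its part in the Ednrb result was not tested.

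The genes that rose with the block were Atoh8, Sox4, Sox9, Apbb2, Il17ra and Ksr1. Sox4 and Sox9 encode transcription factors of the SOX family, of which Sox9 is known to hold back adipocyte differentiation. Sox4 had 64.2, 66.5 and 53.5 CPM in DMSO and 107, 101 and 97.3 CPM in Lip (log2 fold change 0.73 ± 0.12, edgeR adjusted p = 0.0654, and 0.0122 with the block). Sox9 had 21.5, 24.2 and 21.2 CPM in DMSO and 39.5, 34.8 and 46 CPM in Lip (log2 fold change 0.85 ± 0.14, edgeR adjusted p = 0.0671, and 0.0285 with the block). Ksr1, a scaffold of the ERK kinase cascade, had 15, 14.2 and 16.2 CPM in DMSO and 31, 25.2 and 29.4 CPM in Lip, Apbb2 a mean of 29.2 and 41.7 CPM, and Il17ra, the receptor chain for interleukin 17, a mean of 125 and 168 CPM. Their block-adjusted p-values were 0.0454, 0.0225 and 0.0254, and none of the 5 genes other than Atoh8 passed once Lip replicate 3 was also left out.

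**Figure D4:**
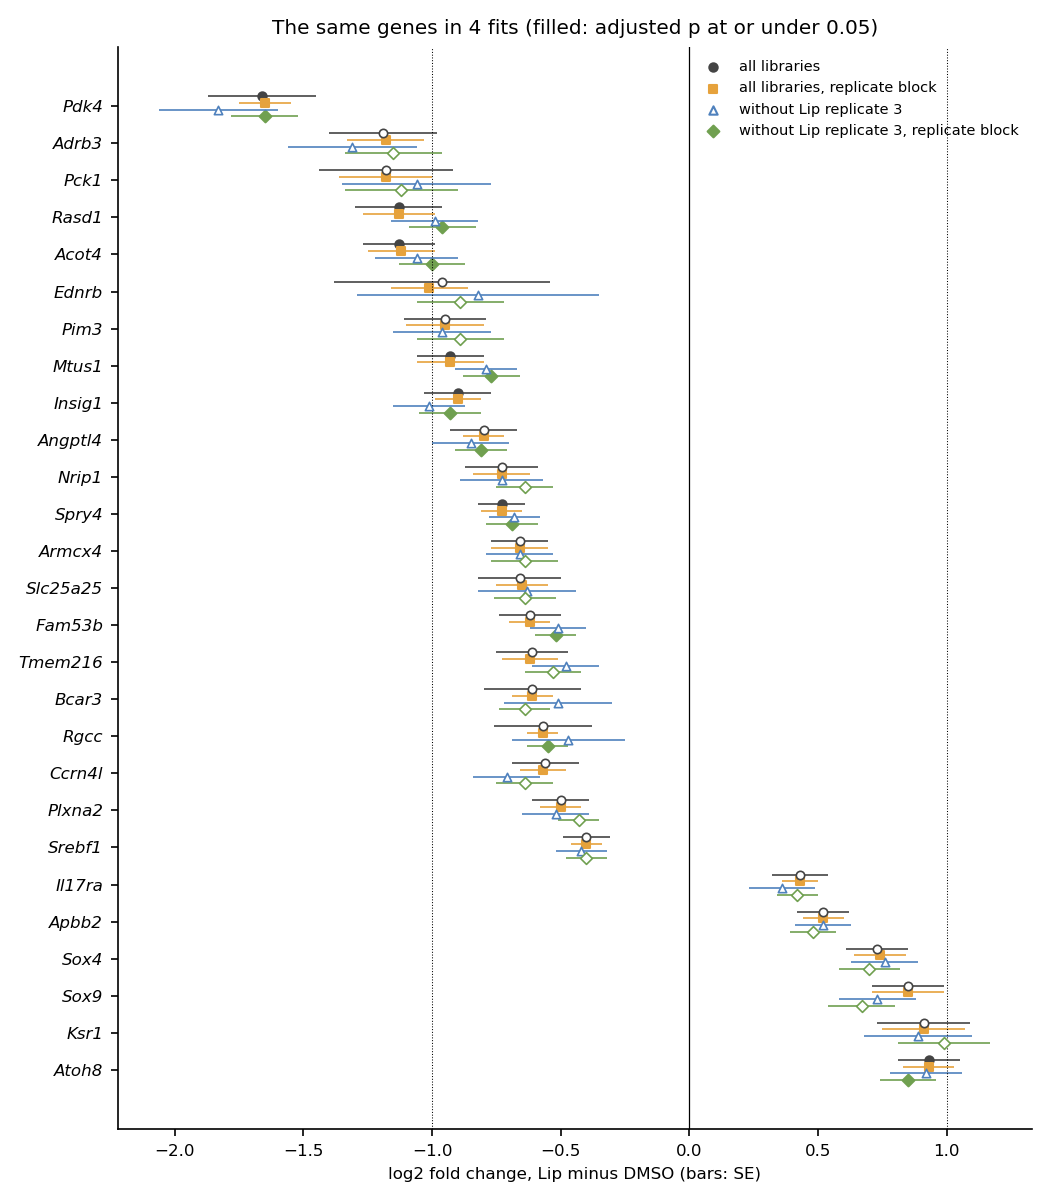
Log2 fold change of Lip over DMSO with its SE for the 27 genes that passed without or with the replicate block, in 4 fits; filled symbols mark an adjusted p of 0.05 or less. No gene changes sign between the fits, and Pdk4 stays between -1.83 and -1.65.

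At very low levels, DESeq2 also called genes that the edgeR test did not. Trim71 (0, 1 and 0 counts in DMSO and 9, 15 and 14 in Lip) and Gm5464 (1, 0 and 2 against 21, 14 and 21 counts) were separated in every library (edgeR adjusted p = 0.105 and 0.0671). Epcam and Cldn1, both epithelial genes, were called higher by DESeq2 as well, but had 5.87 and 2.74 CPM in Lip replicate 3 and at most 0.451 and 0.29 CPM in the other 5 libraries. Frem2 had 0 counts in each DMSO library and 9, 3 and 26 counts in Lip (edgeR adjusted p = 0.498). Among genes that DESeq2 called lower was 9330159F19Rik, at 5.27, 5.2 and 6.58 CPM in DMSO and 2.99, 2.45 and 2.44 CPM in Lip (edgeR adjusted p = 0.208).

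The list of PPAR and fatty acid responsive genes held 2 of the 6 genes that fell. This list was drawn up with earlier results of these data known, so its counts are a description and no independent support. Of its 40 tested members, Pdk4 and Acot4 fell, and Angptl4 too with the block, against the 0.0443% and 0.155% of all genes given above. Of the 40, 32 had a log2 fold change below 0 (49.4% of all tested genes did), 15 had all Lip libraries under all DMSO libraries (5.21% of all genes), and the median was -0.19 against 0 for all genes. Members that did not pass lay on both sides of 0. Hilpda, an inhibitor of ATGL on lipid droplets, had 24.2 and 14.6 CPM (means of DMSO and Lip, log2 fold change -0.72, adjusted p = 0.353), and Plin2, a coat protein of lipid droplets, 1635 and 1201 CPM (-0.45, adjusted p = 0.768). Fgf21, a hormone, had 12.9 and 5.9 CPM with overlapping groups (-1.11, adjusted p = 1), Ucp3, a mitochondrial carrier, 19.9 and 11.9 CPM (-0.74, adjusted p = 0.591), while Plin5 and Cpt1a lay at 0 and -0.1. Cyp4a14, a fatty acid hydroxylase, had the highest value of the list, at a mean of 0.117 and 0.404 CPM (1.78, adjusted p = 0.913). Of the receptors, Pparg stood at 338 and 330 CPM (-0.03, adjusted p = 1) and Ppara at 19.9 and 14.4 CPM (-0.46, adjusted p = 1). The median of the list was -0.17, -0.14 and -0.23 in the 3 pairs and -0.19 without Lip replicate 3.

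None of the transcripts of the lipases themselves passed, which does not check the inhibitors, since these act on the enzymes. The study's text gives fatty acid release to the medium for brown adipocytes and not for these white adipocytes, so the extent of the block is not known here. Pnpla2 had 3391, 2843 and 3482 CPM in DMSO and 3213, 2792 and 3189 CPM in Lip (log2 fold change -0.08 ± 0.16), and Lipe 2933, 2251 and 2550 CPM in DMSO and 2373, 1903 and 1812 CPM in Lip (-0.35 ± 0.15), and both sets overlapped (edgeR adjusted p = 1 for each). Abhd5, the activator of ATGL, had a log2 fold change of -0.09 ± 0.1, and Mgll of -0.17 ± 0.11. G0s2, an inhibitor of ATGL, had 509, 476 and 403 CPM in DMSO and 278, 290.2 and 166 CPM in Lip, a separation that did not pass (log2 fold change -0.92 ± 0.35, edgeR adjusted p = 0.913). Of 34 tested genes of lipolysis and lipid droplets, 0 passed without the block in edgeR (10 had an unadjusted p under 0.05, all lower, and DESeq2 gave 4 lower), and 1, Adrb3, with it. Of all genes, 1.97% had an unadjusted p under 0.05 and were lower. Of the 34, 28 lay below 0 (49.4% of all genes did), with a median of -0.18 against 0 for all genes. All Lip libraries were under all DMSO libraries for 12 of the 34 (5.21% of all genes). Receptors that restrain lipolysis were among these, with Hcar2, the receptor for hydroxybutyrate, at 24.1 and 15.3 CPM (log2 fold change -0.66, adjusted p = 0.373) and Ffar4, a fatty acid receptor, at 7.24 and 4.33 CPM (-0.74, adjusted p = 0.341).

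Markers of the adipocyte itself lay slightly below 0 as well. All 15 adipocyte markers had a log2 fold change below 0, with a median of -0.18 and a range of -0.35 to -0.03, and 0 of them passed in edgeR (1 had an unadjusted p under 0.05, as did 4.3% of all genes). Their summed level was 65250, 51220 and 61090 CPM in DMSO and 56300, 47280 and 54860 CPM in Lip, which overlapped (exact permutation test, two-sided, p = 0.3). It was lower in Lip in each of the 3 pairs (median log2 difference of the markers -0.19, -0.12 and -0.15, exact paired permutation test of the sum, two-sided, p = 0.25, the smallest 3 pairs can give). Fewer adipocytes and less RNA per adipocyte cannot be told apart in such samples, and the part of this in the list medians was not tested.

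Among genes of fatty acid and triglyceride synthesis 0 passed in edgeR without the block, while Srebf1 and Pck1 fell with it and DESeq2 gave 3 lower. Of the 27 tested, 23 lay below 0 (49.4% of all genes did) with a median of -0.09. An unadjusted p under 0.05 was reached by 6, all lower (1.97% of all genes). Agpat9, an enzyme of glycerolipid synthesis, had 338, 330.4 and 350 CPM in DMSO and 246, 221 and 196 CPM in Lip (log2 fold change -0.62 ± 0.11, edgeR adjusted p = 0.105, and 0.0534 with the block), and Fasn, the fatty acid synthase, 753 and 746 CPM (-0.01, adjusted p = 1). Among 24 genes of sterol synthesis, Insig1 passed and the median was -0.07. Of 24 genes of mitochondrial fatty acid oxidation, 0 passed in edgeR or with the block (2 had an unadjusted p under 0.05, both lower). Of these 24, 19 lay below 0 (49.4% of all genes did) and the median was -0.11.

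Targets of cAMP and CREB lay on both sides of 0. Of 32 tested, Rasd1 fell, and with the block Pck1 and Adrb3 as well, and DESeq2 gave 1 higher and 3 lower. In these cells ISO did not raise these 3 genes past the test. ISO against DMSO gave log2 fold changes of -2.51 for Rasd1, -2.67 for Adrb3 and 0.22 for Pck1 (edgeR adjusted p = 8.8e-07, 3.9e-06 and 0.562). Nr4a1 and Crem, by contrast, had 4.42 and 2.85. An unadjusted p under 0.05 was reached by 5 higher and 6 lower members (2.33% and 1.97% of all genes), and the median was 0.1, or 0 without Lip replicate 3. Nr4a1, an orphan nuclear receptor induced by cAMP, had 16, 19.4 and 15.1 CPM in DMSO and 22.6, 32.8 and 38.1 CPM in Lip (log2 fold change 0.89 ± 0.27, edgeR adjusted p = 0.678). Crem, Ppargc1a and Dio2 had log2 fold changes of 0.08, 0.02 and 0.42 (adjusted p = 1 for each), with Dio2 at most 0.996 CPM in any of these libraries. Of 31 immediate early and ERK feedback genes, Spry4 fell, and Egr1 had 32.4 and 23 CPM (log2 fold change -0.49, adjusted p = 0.568). Of 22 core clock and output genes, 0 passed (0 had an unadjusted p under 0.05), with Nr1d1 at 151 and 135 CPM (-0.16 ± 0.07, adjusted p = 1). Ucp1, the uncoupling protein of thermogenic fat, was at most 1.33 CPM in the 6 libraries.

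Among 37 genes of pyruvate use and glycolysis Pdk4 passed (median -0.02), and Pfkfb3, which makes an activator of glycolysis, had 656, 478 and 501 CPM in DMSO and 396, 309 and 235 CPM in Lip (log2 fold change -0.8 ± 0.26, edgeR adjusted p = 0.774). Over all tested genes, 4.3% had an unadjusted p under 0.05, the share to set beside the counts in this paragraph. Of 21 insulin signaling genes 0 passed (4 had an unadjusted p under 0.05), with Irs2 at 262 and 185 CPM (log2 fold change -0.5, adjusted p = 1, and 0.0531 with the block). Of 18 glucocorticoid targets, Pdk4 and Rasd1 fell, Angptl4 too with the block, and the median was -0.02. Of 24 markers of the unfolded protein response 0 passed (1 had an unadjusted p under 0.05), with Ddit3, Hspa5 and Atf4 at log2 fold changes of -0.08, 0.07 and -0.15. Of 10 targets of the aryl hydrocarbon receptor 0 passed (2 had an unadjusted p under 0.05), with Cyp1a1 at 0.515 to 1.87 CPM in the 6 libraries. Of 18 adipokines 0 passed (2 had an unadjusted p under 0.05), with Adipoq and Lep at -0.16 and -0.12. A mixed panel of 33 genes was chosen with earlier results of these data known, so its counts are a description and no independent support. Of the panel, Pdk4, Acot4 and Rasd1 fell, Angptl4 and Adrb3 too with the block, and 23 lay below 0 (49.4% of all genes did). In 3 further lists at most 1 member passed: Acot4 of 13 thioesterase genes (median 0.01), Rasd1 of 16 Ras-related genes and regulators of G protein signaling (median -0.23), and 0 of 22 thermogenic genes (2 had an unadjusted p under 0.05, median 0.03). DESeq2 also gave 0 for the clock, thermogenic, oxidation, insulin, unfolded protein, aryl hydrocarbon, adipokine and adipocyte lists.

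The study grouped genes that ISO raised in brown adipocytes into clusters C1 to C4 by their dependence on lipolysis, on libraries not used here. In C1, the cluster most dependent on lipolysis by that grouping, Pdk4, Insig1 and Spry4 fell of 144 tested genes, and Bcar3 too with the block. Of all genes, 0.0443% fell without the block and 0.155% with it. Of these 144, 104 lay below 0 (49.4% of all genes did), 32 had all Lip libraries under all DMSO libraries (5.21% of all genes), and the median was -0.13. An unadjusted p under 0.05 was reached by 27 lower and 0 higher members (1.97% and 2.33% of all genes). In C2 0 of 101 passed in edgeR (13 had an unadjusted p under 0.05, 8 lower and 5 higher, and DESeq2 gave 2 higher) and the median was 0. In C3 0 of 185 passed (27 had an unadjusted p under 0.05, 23 lower and 4 higher, and DESeq2 gave 11 lower). Pck1, Ccrn4l, Slc25a25 and Armcx4 fell with the block, 124 members lay below 0 and the median was -0.07. In C4 Acot4 fell of 174, and Pim3 too with the block. Of these 174, 107 lay below 0, 12 lower and 9 higher had an unadjusted p under 0.05, and the median was -0.05.

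The inhibitors were also given before ISO, in libraries that are not part of the comparison above. In Lip+ISO against ISO, which shares no library with Lip against DMSO, 162 genes were called lower and 107 higher (1.2% and 0.79% of genes). Without ISO, the 162 genes had a median log2 fold change of -0.17, and 121 of them (74.7%) lay below 0, against 49.4% of all genes. Of the 162, 46 (28.4%) had all Lip libraries under all DMSO libraries, against 5.21% of all genes, and 4 passed. The 107 genes had a median of 0.16, with 26 (24.3%) below 0 and 18 (16.8%) with all Lip libraries above all DMSO libraries, against 5.19% of all genes. By pair the medians were -0.18, -0.31 and -0.2 for the 162 genes and 0.16, 0.11 and 0.16 for the 107. Without Lip replicate 3 they were -0.2 and 0.1, and for genes with a mean of at least 1 CPM over the 12 libraries -0.21 and 0.13. With no minimum fold under ISO (621 lower and 590 higher genes) they were nearer 0, at -0.09 and 0.03, with 70.7% and 39.7% of the genes below 0.

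**Figure D5:**
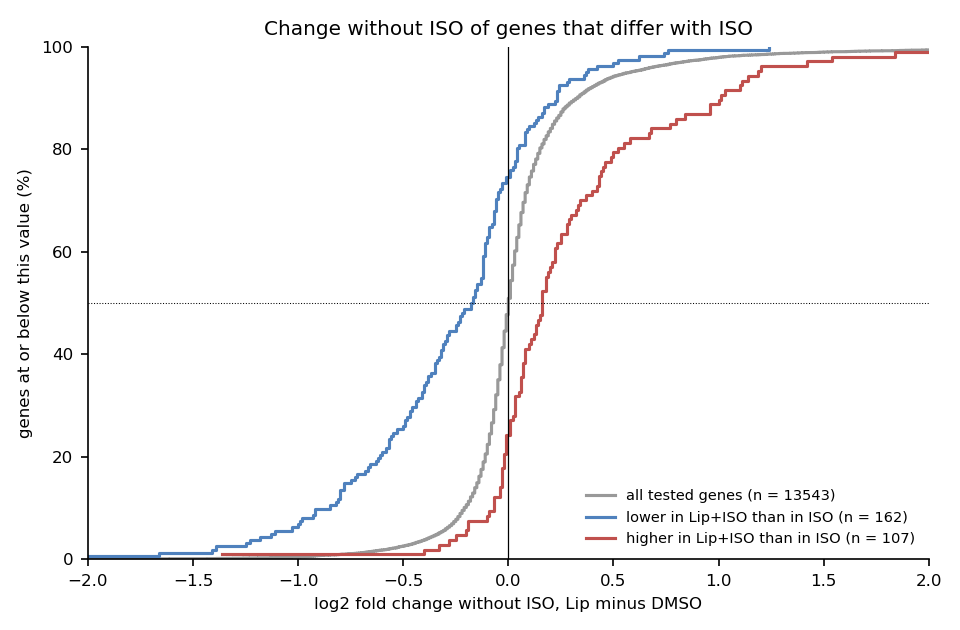
Share of genes (%) at or below each log2 fold change of Lip over DMSO, for all 13543 tested genes, the 162 genes called lower and the 107 called higher in Lip+ISO than in ISO; the x axis is drawn from -2 to 2 and the dotted line marks 50%. The 162 genes lie to the left of all genes (median -0.17) and the 107 to the right (median 0.16).

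Of the 7 genes that changed without ISO, all had the same sign under ISO and 5 passed there (Pdk4, Acot4, Rasd1, Spry4 and Mtus1), all lower, against 4.59% of all genes lower and 4.36% higher. Pdk4 stood at 880 ± 78.4 CPM in ISO and 53.6 ± 16.4 CPM in Lip+ISO (SD, n = 3), a log2 fold change of -4.04, and the test of the difference from the effect without ISO passed, as it did for 1.62% of all genes (interaction -2.38 ± 0.29, edgeR adjusted p = 0.00171). Angptl4 likewise differed, at -2.86 under ISO (interaction -2.06 ± 0.19, edgeR adjusted p = 2.0e-04). For Acot4 the effect under ISO was -1.77, and the difference from that without ISO did not pass (edgeR adjusted p = 0.142). Insig1 had -0.29 ± 0.13 under ISO (edgeR adjusted p = 0.201, and 0.143 for the difference). Adrb3 was at 28.8 ± 7.27 CPM in ISO and 29.4 ± 7.1 CPM in Lip+ISO, a log2 fold change of 0.04, but its difference from the effect without ISO did not pass either (edgeR adjusted p = 0.0706). Sox4 and Sox9, which rose without ISO in the fit with the block, had -0.22 and -0.12 under ISO, and both differences passed (edgeR adjusted p = 0.013 and 0.0314).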

How the data were processed

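RNA sequencing counts were analyzed for 3 DMSO and 3 Lip libraries, grouped by sample title, within a table of 12 libraries. The deposited counts are whole numbers of reads per RefSeq gene, with no normalization. The authors aligned reads with STAR 2.4.2a to mm9 and counted them with HOMER and iRNA-seq, and the submitters' notes also list hg19. Strand-specific counting is not given in the sources used here. HOMER was set to limit reads per position, which would lower counts of abundant genes. The authors' 2 columns of gene and exon length describe genes and entered no test. Totals were 22632220 to 34903696 counts, so low counts limit the precision below about 1 CPM.

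Tests used edgeR 4.0.16 (R 4.3.3) on counts that passed filterByExpr (13543 of 20295 genes), scaled by TMM (0.992 to 1.07 in the 6 libraries). All 12 libraries entered a single quasi-likelihood fit with a mean for each treatment and no replicate term. F-test p-values, two-sided, were Benjamini-Hochberg adjusted across the tested genes, and calls needed 0.05 or less together with a log2 fold change of 1 or more in size. CPM are TMM-scaled. Alternatives were the replicate number as a block, DESeq2 1.42.0 (Wald test), other scaling and filters, the 6 libraries alone, and leaving libraries out. The study speaks of independent experiments, and same-numbered libraries deviated together (correlations 0.34, 0.37 and 0.2), so the numbers were taken as pairs.

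Named genes are those called in edgeR without or with the block, without Lip replicate 3 or by DESeq2, the 8 genes of each direction with the smallest p among separated genes of at least 5 CPM, a panel of 33 genes, up to 3 leading members per list, and the 5 epithelial and 5 epididymis markers highest in Lip replicate 3. The genes with an adjusted p at or under 0.05 in either fit, and single list members named beside these, were added after their values were seen. Members, lists and tests were chosen with earlier results of these data known. Lists came from general knowledge, except the brown adipocyte clusters, which the study chose on other libraries, and its unfolded protein response markers. The models were tested on simulated data. Some list members are not reported here. Promoters are RefSeq's (GRCm38.p6), and gene positions are the table's (mm9).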

Additional observations from a re-analysis of the deposited data

Results flagged for a closer look

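Among the named genes, the effect of the inhibitors differed between cells with and without ISO by the interaction term (edgeR, adjusted over all tested genes, of which 220 or 1.62% passed). Values are the log2 effect with ISO minus that without. For genes that were below 0 without ISO and lower still with it, and that had passed without ISO in the fit with the replicate block, the difference was -2.38 for Pdk4, -2.06 for Angptl4, -0.8 for Spry4, -1.25 for Plxna2, -2.12 for Ccrn4l and -1.72 for Bcar3. For genes below 0 without ISO that had passed in neither fit it was -2.69 for Egr1, -2.19 for Pfkfb3 and -1.39 for Nr1d1. Egr1, an immediate early transcription factor, thus had -0.49 without ISO and -3.18 with it. It was 2.52 for Dio2, 0.93 for Crem, 0.58 for Pparg, 1.1 for Stard4 and 0.6 for Tnfrsf1b, of which Dio2 and Crem are cAMP-responsive. Of genes above 0 without ISO and below 0 with it, the difference was -0.95 for Sox4, -0.97 for Sox9, -0.96 for Il17ra and -0.72 for Plekha2.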

How the results depend on the processing

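The number of genes that changed without ISO depended on the model far more than their folds did. Genes called higher and lower numbered 0 and 3 as reported, 0 and 6 in the fit with a replicate block, 0 and 1 with the block and without Lip replicate 3, 5 and 6 in DESeq2, 3 and 15 in DESeq2 with the block, 2 and 12 for the 6 libraries alone with the block, and 1 and 6 with no minimum fold. Genes that passed at any size, 1 higher and 6 lower as reported, became 6 and 21 with the block, 22 and 35 in DESeq2, and 52 and 108 in DESeq2 with the block. They became 189 and 270 for the 6 libraries alone with the block, and 3 and 11 without a filter on low counts. For the 6 libraries alone without the block they were 2 higher and 9 lower under either filter. Leaving out any library or replicate number left 0 to 1 called in either direction and 0 to 1 passing in either direction. DESeq2's size factors in edgeR left the counts as reported, at 0 and 3 called and 1 and 6 passing.

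Over such fits Pdk4 stayed between -1.83 and -1.46, Acot4 between -1.24 and -1.01, Rasd1 between -1.33 and -0.99 and Insig1 between -1.01 and -0.79, and each had an adjusted p over 0.05 in 7, 9, 8 and 9 of the 9 fits. Genes near 0 or carried by Lip replicate 3 turned direction when libraries were left out: Cpt1b ran from -0.05 to 0.75, Ucp1 from -0.04 to 1.12, Ppargc1a from -0.14 to 0.2, Crem from -0.02 to 0.16, Arntl from -0.1 to 0.22, Bhlhe40 from -0.01 to 0.16, Ddit3 from -0.29 to 0.06, Hspa5 from -0.13 to 0.27, Lep from -0.32 to 0.08, Cldn4 from -0.27 to 3.3, Krt8 from -1.82 to 3.25, Krt18 from -1.43 to 3.35 and Krt19 from -0.95 to 2.53. With the block and without Lip replicate 3, Crem was at -0.01, Arntl at -0.04, Abhd5 at 0.02, Cldn4 at -0.12, Krt8 at -1.49, Krt18 at -1.21 and Krt19 at -0.93.

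List medians ran, with libraries left out, from -0.22 to -0.14 for PPAR genes, -0.27 to -0.13 for lipolysis, 0 to 0.16 for cAMP targets, -0.07 to 0.09 for immediate early genes, -0.18 to -0.07 for fatty acid oxidation, -0.16 to -0.06 for fatty acid synthesis, -0.11 to 0.02 for insulin signaling, -0.07 to 0.01 for thioesterases, -0.3 to 0.05 for Ras-related genes, -0.11 to 0.07 for unfolded protein markers, -0.07 to -0.02 for glucocorticoid targets, -0.18 to 0.01 for adipokines, -0.26 to -0.08 for adipocyte markers and -0.08 to -0.03 for C4. Scaling by library totals alone gave 0.01 for immediate early genes, 0.01 for glucocorticoid targets and -0.01 for C4, and the block without Lip replicate 3 gave 0.01 for immediate early genes. For the genes called under ISO, dropping the minimum fold gave medians without ISO of -0.09 and 0.03, a mean of at least 1 CPM gave 0.13 for the higher set, and leaving out Lip replicate 3 gave 0.1 for it. The causes of these shifts were not tested. The fits without Lip replicate 3 with the block, the DESeq2 fit with the block, the 1 CPM minimum and the paired test of marker sums were chosen after seeing the data. With 3 libraries a group, an exact permutation test cannot go below 0.10, and genes with few counts limit every fold near the 3-count floor.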
